A study of Mus musculus with 80 samples.

Results

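Hematopoietic progenitor cells (HPC) of mice that lack the type I interferon receptor were compared with those of heterozygous mice at postnatal day 14, all with normal Flt3. The comparison took 8 of the 80 RNA-seq samples of the series: 4 libraries titled P14 Ifnar -/-, Flt3 +/+ HPC and 4 titled P14 Ifnar +/-, Flt3 +/+ HPC, chosen by title alone. The controls thus carry 1 Ifnar allele and are not wild type. A further 3 pairs of groups served for comparison and share no library with these 8 or with each other. They were HPC at postnatal day 14 with a Flt3 internal tandem duplication (4 Ifnar +/-, Flt3 ITD/+ and 5 Ifnar -/-, Flt3 ITD/+ libraries), HPC at P0, the day of birth (4 wild-type and 4 Ifnar -/- libraries), and hematopoietic stem cells (HSC) at P0 (5 wild-type and 4 Ifnar -/- libraries). The labels name neither the receptor subunit that was deleted, nor the organ, the sort or the strain. They do not say that the libraries of a group came from separate mice, so the p-values measure only the spread between these samples, which may be technical.

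Type I interferons (interferon alpha and beta) bind a receptor built from the chains Ifnar1 and Ifnar2, which activates the kinases Jak1 and Tyk2. These activate transcription factors that join Irf9 in a complex, which binds interferon-stimulated response elements in promoters. The genes switched on this way encode antiviral proteins, further signalling proteins such as Irf7, and the MHC class I machinery that shows peptides to T cells. A low activity of this pathway without infection is known in blood stem and progenitor cells.

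The 4 Ifnar +/- libraries did not form an even group, and this bears on every result below. Each library held 61.9 to 92.1 M counts in Ifnar +/- and 73.5 to 90.4 M in Ifnar -/-. Across 17464 genes, the deviation of a library's log2 CPM (read counts scaled to library size, the unit of all levels below) from the mean of all 17 HPC libraries of that age was set against exon length. The Spearman correlation was -0.30, 0.27, -0.37 and -0.25 in Ifnar +/- libraries 1 to 4 and 0.11, 0.13, 0.28 and 0.25 in Ifnar -/- libraries 1 to 4. Heterozygote libraries 1, 3 and 4 therefore read long genes low and short genes high, while the correlation of heterozygote library 2 had the sign of the knockouts. In the Flt3 ITD/+ libraries the correlation lay between -0.15 and 0.23. Library 1 of the heterozygotes also stood apart in granule genes of immature neutrophils: it held 2130 CPM of Elane (neutrophil elastase), where the other 3 held at most 6.64 CPM. Reads of Y-linked genes were plentiful in heterozygote libraries 2 and 3 and in knockout libraries 2, 3 and 4, and Xist in the other 3, so the sexes were mixed in both groups.

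**Figure D1:**
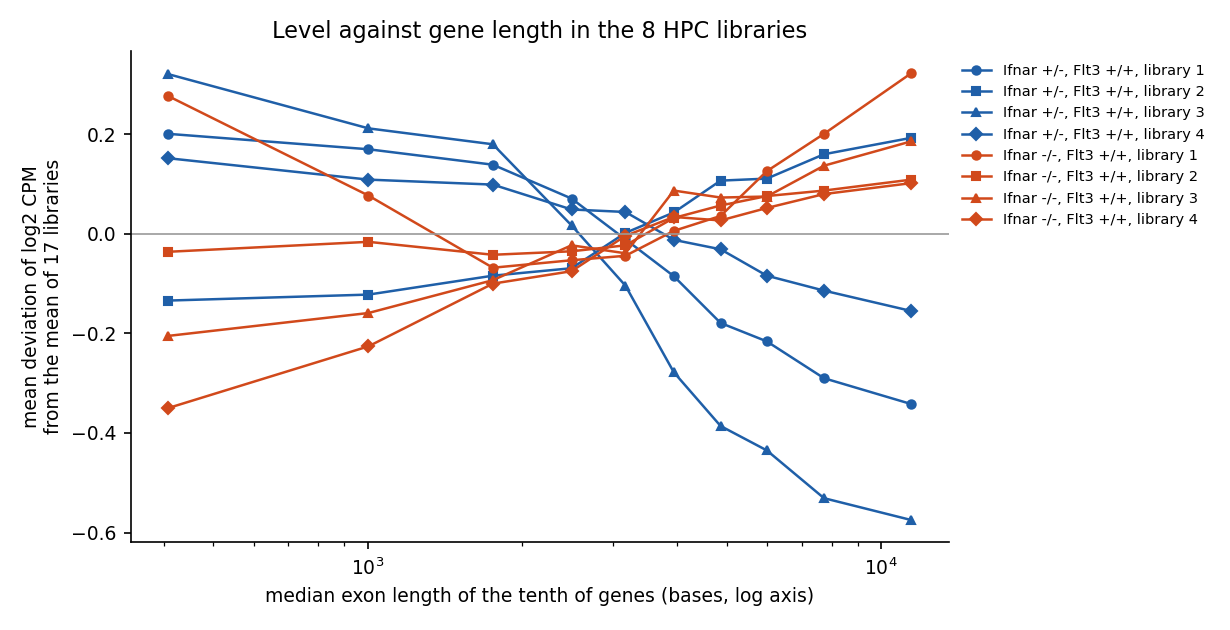
Mean deviation of log2 CPM from the mean of 17 libraries (vertical axis) for genes in 10 equal classes by exon length (horizontal log axis, bases), with 1 line for each of the 8 libraries. Heterozygote libraries 1, 3 and 4 (blue circles, triangles and diamonds) fall toward long genes, and heterozygote library 2 (blue squares) and the 4 knockout libraries lie above 0 in the longest class; knockout library 1 also lies high in the shortest class, at 0.277.

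The trend carried into the comparison. The median log2 fold change (Ifnar -/- minus Ifnar +/-) was -0.42 in the shortest of 10 equal classes of genes by exon length and 0.41 in the longest, and its Spearman correlation with exon length across genes, which are not independent replicates, was 0.35. The same correlation was -0.17 between the Flt3 ITD/+ groups, 0.26 in HPC at P0 and 0.01 in HSC at P0. Of 17464 genes tested with edgeR's quasi-likelihood test, 188 were higher (1.08%) and 578 lower (3.31%) in Ifnar -/- at an adjusted p under 0.05, together 766 (4.39%). The higher genes had a median exon length of 6288 bases and the lower genes 2302, against 3548 over all genes. The main groups of genes below are therefore also given against heterozygote library 2 alone, with a length correction, or both. How far the length trend makes up these calls was not tested beyond that. The shares of 1.08% higher and 3.31% lower stand beside each count of list members called in this comparison below. Genes named for the largest change had to show no overlap between the groups, so their separation was set by that rule. Without overlap, 517 of all 17464 genes were lower and 608 higher.

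Neither receptor chain was lower in the knockouts. Ifnar1 read 26.9, 49.7, 20.6 and 38.0 CPM in the heterozygotes and 47.4, 53.4, 59.4 and 54.8 CPM in the knockouts (log2 fold change 0.67 ± 0.20 SE, adjusted p = 0.0567 by edgeR). Ifnar2 read 12.5, 41.4, 16 and 14.6 CPM against 22.4, 39.0, 39.1 and 31.6 CPM (0.64 ± 0.34, adjusted p = 0.204). The knockout libraries thus still held reads of both chains, and for both genes heterozygote library 2 was the highest control and close to the knockouts. Against that library alone the log2 fold change of Ifnar2 was -0.33. The labels do not say which subunit or which exons are missing, so a count per gene is no check of the genotype labels here. The kinases Jak1 and Tyk2 were not called either (log2 fold changes 0.69 and 0.64).

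Many interferon-induced genes were far lower in the Ifnar -/- progenitors. The summed level of the 5 interferon lists was 11400, 12400, 15000 and 13800 CPM in Ifnar +/- libraries 1 to 4 and 7650, 10100, 9050 and 10400 CPM in Ifnar -/- libraries 1 to 4. Most of this sum came from the list of membrane proteins and other effectors, at 7460 to 11100 CPM against 4620 to 6570 CPM. In each of the other interferon lists the summed levels of the groups overlapped. Of 167 genes in 5 lists of interferon genes, 161 were in the table and 158 passed the filter on low counts. Of these 158, 42 fell, where 3.31% of all genes did. None rose in edgeR's test. At an unadjusted p under 0.05, 7 were higher, and DESeq2 called 4 higher. Over all genes, 5367 of 17464 had such a p in either direction, and DESeq2 called 1205 higher. In 13 of 18 other settings no member was called higher, and the most was 25, with Y-linked level as a covariate. That covariate setting called 3436 of all 17464 genes higher. All 42 kept a negative sign against heterozygote library 2 alone, with a median log2 fold change of -2.55 there against -2.90 with all 4 controls. Of all 578 lower genes, 400 kept the sign there and 178 changed it, with a median of -0.08 against -0.83. That library is 1 of the 4 controls that gave the calls, so a kept sign is no independent check. The median over all 158 was -0.45, beside 0.04 over all genes tested. Over 18 other settings of the analysis, between 10 (heterozygote library 2 as the only control) and 63 members (that library left out) were called lower. Without heterozygote library 2, 21 members were also called higher. Of all 17848 genes tested in that setting, 3519 were called higher and 2704 lower. These totals stand beside every list count given below without that library. Leaving out heterozygote library 1, 3 or 4 gave 24, 23 and 25 lower, and leaving out knockout libraries 1 to 4 gave 19, 15, 19 and 19.

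About as many of these promoters as not hold the core of the element that the Irf9 complex binds. Of them 7 are printed below to show it beside the values, with that of Ifi206, a gene outside the lists that was called lower in every setting. The core of an interferon-stimulated response element, taken as GAAA, any 2 bases and GAAA again, was searched on both strands (TTTC, any 2 bases and TTTC on the other) in the 250 bases before and 50 bases after each start site in RefSeq promoters of build GRCm38.p6. Of the 42 lower interferon genes, 31 had a promoter in that table and 16 held a match, which is 51.6%. The share was 5.57% among 395 other lower genes outside the interferon and MHC lists, 3.97% among 151 higher genes and 3.95% among the 11492 genes tested that had a promoter. A match is a description of the letters, not a bound site. The stretches below run 5′ to 3′ along the gene's strand and lie before the start site, with the match in capitals.

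Oas1a, chr5:120907526-120907570, minus strand: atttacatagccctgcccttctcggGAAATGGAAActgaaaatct

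Oas1g, chr5:120887614-120887656, minus strand: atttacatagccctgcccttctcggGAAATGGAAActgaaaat

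Isg15, chr4:156200862-156200921, minus strand: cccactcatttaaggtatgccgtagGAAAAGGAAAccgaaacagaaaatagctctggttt

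Ifit1, chr19:34640760-34640819, plus strand: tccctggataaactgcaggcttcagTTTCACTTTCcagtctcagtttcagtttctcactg

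Ifit3, chr19:34583348-34583407, plus strand: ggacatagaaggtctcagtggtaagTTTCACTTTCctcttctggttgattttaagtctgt

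Tgtp1, chr11:48992289-48992348, minus strand: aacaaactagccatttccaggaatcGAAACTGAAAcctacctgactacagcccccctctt

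Bst2, chr8:71537568-71537627, minus strand: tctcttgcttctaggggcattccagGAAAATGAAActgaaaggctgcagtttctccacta

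Ifi206, chr1:173491324-173491383, minus strand: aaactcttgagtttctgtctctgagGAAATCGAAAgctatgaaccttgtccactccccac

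Isg15 holds 3 matches in a row, each overlapping the next, and Oas1a, Oas1g, Ifit1, Ifit3 and Bst2 hold 2 matches each; the match in capitals is the first. Oas1a and Oas1g share the printed stretch up to the last bases of the longer window. They are close copies of each other, as are H2-Q6 with H2-Q7 and Ifit3 with Ifit3b, so reads may have been split between such pairs and their single values are uncertain.

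Among the signalling genes, the transcription factors Irf7 and Irf9 and the regulator Usp18 fell, and the other 11 tested did not pass. Irf7, the factor that amplifies interferon production, read 58.4, 94.4, 65.2 and 108 CPM in the heterozygotes and 13.5, 19.3, 15 and 15 CPM in the knockouts. No knockout reached the lowest control (log2 fold change -2.37 ± 0.36, adjusted p = 0.00268 by edgeR), and Irf7 was called in 17 of 18 other settings. Irf9, the DNA-binding part of the complex named above, read 111, 181, 156 and 205 CPM against 59.2, 84.0, 48.2 and 91.9 CPM (-1.21 ± 0.24, adjusted p = 0.0227). Usp18, which removes Isg15 from proteins and dampens the receptor, read 35.1, 48.3, 61.2 and 94.9 CPM against 5.60, 5.95, 5.26 and 4.75 CPM. The knockouts were nearly alike and all below the controls (-3.47 ± 0.43, adjusted p = 0.000363). These were the 3 calls among 14 tested members of this list, whose median log2 fold change was 0.12.

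Of the antiviral RNA binders and sensors, 13 of 30 tested fell, with a median of -1.00. Leaving out heterozygote libraries 1 to 4 in turn gave 10, 15, 9 and 8 lower members, with 4 higher without library 2, and leaving out knockout libraries 1 to 4 gave 5, 4, 5 and 5 lower. The oligoadenylate synthetases make the messenger that activates RNase L. Oas1a read 62.6, 60.1, 106 and 94.3 CPM in the heterozygotes and 1.32, 1.86, 0.761 and 2.23 CPM in the knockouts (log2 fold change -5.71 ± 0.58, adjusted p = 3.64e-05 by edgeR). Oasl1, a relative without that enzyme activity, read 14.9, 19.7, 26.3 and 35.9 CPM against 0.658, 0.485, 1.13 and 0.305 CPM (-5.23 ± 0.59, adjusted p = 0.000122). Oas1g was at 4.82 to 10.4 CPM in the controls and at 0.0263 to 0.112 CPM in the knockouts. In all 3 genes the groups were far apart and heterozygote library 2 sat with the other controls. Ifit1, which binds viral RNA caps, read 18.2, 34.9, 27.3 and 47.5 CPM against 3.45, 4.46, 5.80 and 3.24 CPM (-2.92 ± 0.48, adjusted p = 0.00615). Ifit3, its partner, read 6.49, 7.35, 7.74 and 18 CPM against 0.301, 0.211, 0.446 and 0.319 CPM (-4.96 ± 0.88, adjusted p = 0.0102). Both groups of each Ifit gene stood apart, with heterozygote library 4 the highest. Zbp1, a sensor of Z-form nucleic acid, was at 4.57 to 8.49 CPM in the controls and 0.368 to 0.998 CPM in the knockouts.

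Of the interferon-inducible GTPases, 3 of 17 tested fell (median -0.56). Without heterozygote library 2 this was 6, with 1 higher, and 1 without knockout library 2 or 4. Mx1, which blocks incoming viruses, was at 1.43, 1.71, 2.18 and 2.45 CPM in the heterozygotes and at 0.0781 CPM in the first knockout, with no read in the other 3. Mx2 was at 3.88, 4.69, 4.02 and 5.16 CPM against 0.770, 0.337, 0.210 and 0.333 CPM (log2 fold change -3.41 ± 0.59, adjusted p = 0.00912 by edgeR). Both Mx genes were thus low in the controls and lower still in every knockout. Tgtp1, a GTPase of the family that acts on vacuoles of intracellular parasites, read 45.2, 59.7, 85.1 and 86.7 CPM against 22.6, 30.7, 12.6 and 29.1 CPM (-1.54 ± 0.36, adjusted p = 0.0388).

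In the Isg15 and ubiquitin list, 3 of 24 tested members fell (median -0.05). The same number fell with any 1 library left out, though 3 others were called higher without heterozygote library 2. Isg15 itself, the ubiquitin-like tag, read 24.9, 27.8, 39.7 and 50.1 CPM in the heterozygotes and 3.26, 5.26, 4.23 and 6.11 CPM in the knockouts (log2 fold change -2.92 ± 0.47, adjusted p = 0.00496 by edgeR). Xaf1, a pro-apoptotic protein, read 45.6, 43.9, 93.6 and 69.8 CPM against 15.4, 12.9, 13.2 and 17.3 CPM (-2.11 ± 0.33, adjusted p = 0.0036). Groups did not overlap in either gene.

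Among membrane proteins and other effectors, 21 of 74 tested fell (median -0.66). Leaving out heterozygote libraries 1 to 4 in turn gave 7, 37, 7 and 10 lower members, with 8 higher without library 2, and leaving out knockout libraries 1 to 4 gave 8, 6, 8 and 8 lower. Rtp4, a chaperone of taste and opioid receptors that is also interferon-induced, read 140, 141, 263 and 245 CPM in the heterozygotes and 8.64, 13.9, 10.9 and 15.8 CPM in the knockouts (log2 fold change -4.00 ± 0.39, adjusted p = 2.62e-05 by edgeR). Ifi27, a small hydrophobic protein, read 177, 162, 352 and 245 CPM against 14, 19.9, 14.6 and 17.5 CPM (-3.83 ± 0.27, adjusted p = 5.11e-07), the smallest p among the genes named here. Ifi44 was at 9.53, 28.7, 15.2 and 35.8 CPM against 0.156, 0.253, 0.0131 and 0.0139 CPM (-7.57 ± 0.85, adjusted p = 0.000122). The 3 genes were lower in every knockout than in any control, also beside heterozygote library 2. Ifi27l2a was at 11.2 to 32.0 CPM against 1.62 to 2.67 CPM, and Phf11c at 4.17 to 7.44 CPM against 0.208 to 1.02 CPM. Ifi206, a DNA-binding PYHIN protein outside the lists, was at 5.46 to 17.5 CPM against 0.277 to 1.27 CPM. Bst2 (tetherin), which holds budding virus at the membrane and also marks plasmacytoid dendritic cells, was at 91.6, 61.3, 107 and 91.1 CPM against 30.7, 45.5, 43.7 and 41.8 CPM (-1.12 ± 0.21, adjusted p = 0.0186). Siglech, which defines those cells, stayed at or under 0.277 CPM in all 8 libraries.

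**Figure D2:**
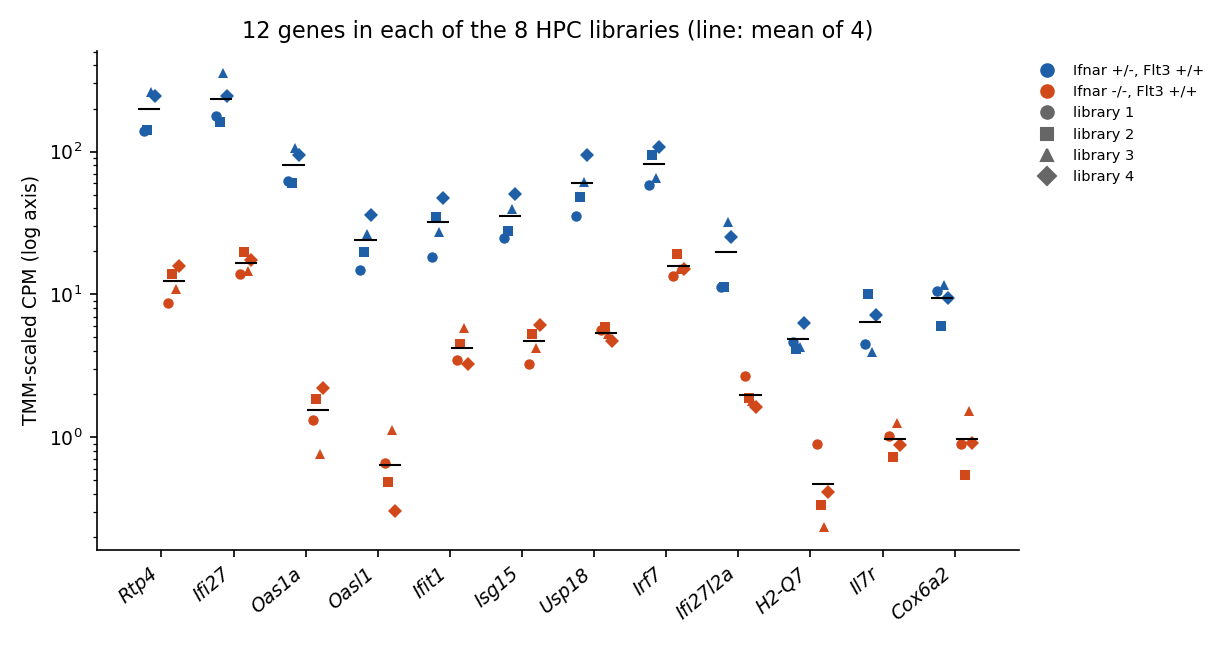
TMM-scaled CPM (vertical log axis) of 12 genes in each of the 4 Ifnar +/- (blue) and 4 Ifnar -/- (orange) libraries, with the marker shape giving the library number and a line at the mean of 4. In all 12 genes, picked from the calls, every knockout lies below every heterozygote, library 2 (squares) included; 2.96% of all genes tested were lower without overlap.

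The MHC class I list fell in part. Of 25 tested members 11 were lower, with a median of -0.69 over the list. B2m, the light chain of every class I molecule, read 2070, 2140, 3520 and 2760 CPM in the heterozygotes and 1540, 1170, 859 and 1120 CPM in the knockouts (log2 fold change -1.16 ± 0.20, adjusted p = 0.00952 by edgeR). The heavy chain H2-K1 read 596, 734, 638 and 640 CPM against 448, 361, 233 and 257 CPM (-1.01 ± 0.18, adjusted p = 0.0133). The other heavy chains H2-Q7 and H2-Q6 were at 2.18 to 6.33 CPM in the controls and 0.0554 to 0.904 CPM in the knockouts. Psmb9, a subunit of the immunoproteasome that cuts the peptides, read 243, 166, 358 and 259 CPM against 115, 151, 126 and 150 CPM (-0.92 ± 0.18, adjusted p = 0.0214). Here heterozygote library 2 was only just above the highest knockout. The 11 called members had a median exon length of 2596 bases, and against heterozygote library 2 alone all kept a negative sign, with 2 of the list called. Leaving out heterozygote libraries 1 to 4 in turn gave 5, 13, 4 and 6 lower members, with 4 higher without library 2, and leaving out knockout libraries 1 to 4 gave 5, 3, 3 and 2 lower. In MHC class II, 1 of 11 tested fell, the loading chaperone H2-DMa (-0.75 ± 0.18, adjusted p = 0.0425).

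The interferon lists were not lower throughout, and the share lower differed with gene length, as it did over all genes. Of 71 tested members shorter than the median gene of 3548 bases, 26 fell (36.6%), with a median log2 fold change of -0.95. Of 87 longer members, 16 fell (18.4%), with a median of -0.10. Over all genes of the same length classes the shares lower were 4.92% and 1.69%. Between the Flt3 ITD/+ groups, whose fold changes had the opposite sign of correlation with length, 60.6% of the shorter and 66.7% of the longer members fell. Over all genes of these classes, 1.57% and 2.27% were lower there. The median of the members there was -1.4 and -1.28. At P0 the shorter members fell in 75% (HPC) and 52.9% (HSC), and the longer members in 70.7% and 55.3%. Over all genes at P0, 7.71% and 1% of the shorter and 3.91% and 0.865% of the longer were lower.

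Single genes showed the same unevenness of the controls. Nlrc5, the activator of MHC class I transcription, read 6.84, 14.6, 4.85 and 7.68 CPM in the heterozygotes and 12.5, 8.19, 3.23 and 6.47 CPM in the knockouts (log2 fold change -0.16 ± 0.36, adjusted p = 0.79 by edgeR), and the groups overlapped. Tap1, the peptide transporter, read 53.3, 91.7, 52.7 and 67.8 CPM against 47.7, 57.3, 42.0 and 55.0 CPM (-0.39 ± 0.19, adjusted p = 0.158). In both genes heterozygote library 2 was the highest of the 8 libraries, and heterozygote libraries 1 and 3 lay within the knockout range. Between the Flt3 ITD/+ groups the log2 fold changes of these genes were -3.38 for Nlrc5 and -1.87 for Tap1. Oas3, the longest synthetase, was at 7.98, 55.0, 7.84 and 22.3 CPM against 2.79, 6.46, 2.68 and 6.28 CPM. It was called lower (-2.36 ± 0.62, adjusted p = 0.0464), with the control values more uneven than in Oas1a.

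**Figure D3:**
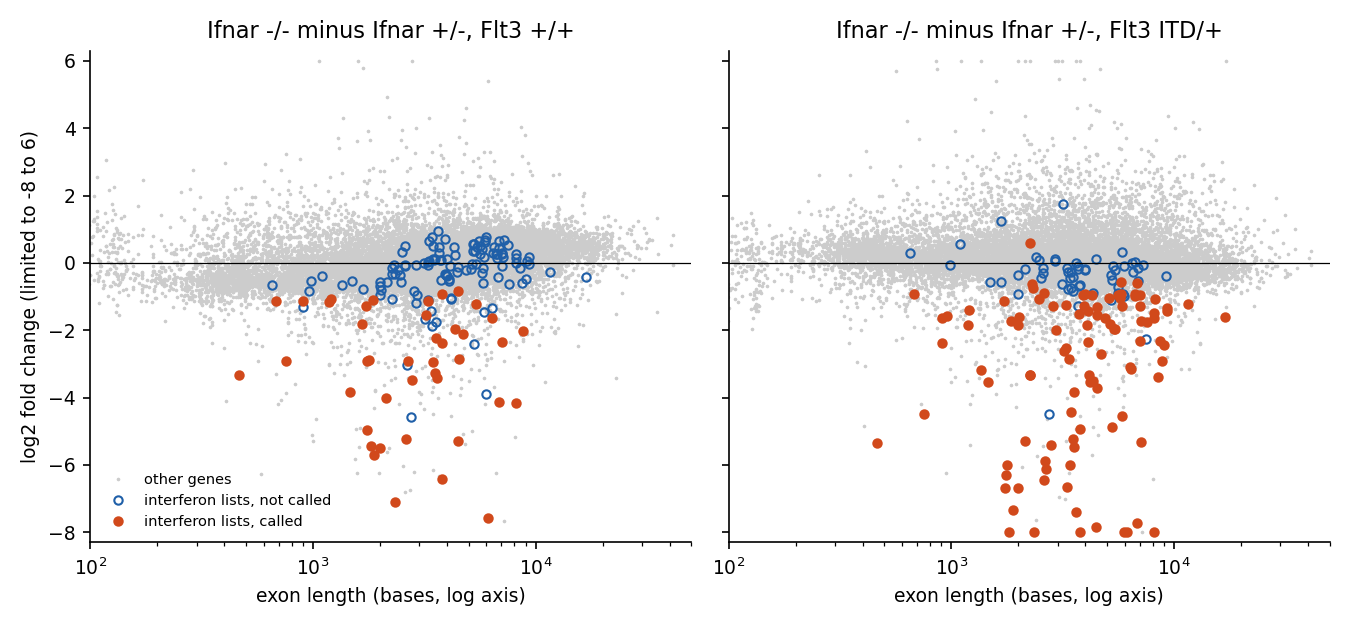
Log2 fold change, Ifnar -/- minus Ifnar +/- (vertical axis, limited to -8 to 6), against exon length (horizontal log axis, bases) in Flt3 +/+ (left) and Flt3 ITD/+ HPC (right), with interferon list members called (orange) or not called (blue rings) over all other genes (grey). On the left, 16 of 87 longer members are called lower and the grey cloud rises with length; on the right, 58 of 87 are.

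Some genes of the lymphoid program fell in the knockouts: of 20 tested genes of lymphoid priming, 4 were lower, with a median of -0.80. The list's summed level was not lower, at 1180, 2460, 1360 and 1610 CPM in the heterozygotes and 1300, 1740, 1730 and 1710 CPM in the knockouts, and the groups overlapped. Leaving out heterozygote libraries 1 to 4 in turn gave 3, 7, 4 and 3 lower genes, with 4 higher without library 2, and leaving out knockout libraries 1 to 4 gave 2, 2, 4 and 2 lower. Il7r, the receptor for the cytokine that early lymphocytes depend on, read 4.47, 10, 3.96 and 7.23 CPM in the heterozygotes and 1.02, 0.728, 1.26 and 0.887 CPM in the knockouts. The groups did not overlap (log2 fold change -2.72 ± 0.40, adjusted p = 0.0026 by edgeR), and Il7r was called in all 18 other settings, with -3.37 against heterozygote library 2 alone. Dntt, the polymerase that adds bases at antigen receptor joints, was the most abundant of them at 447, 595, 545 and 669 CPM against 229, 173, 192 and 153 CPM (-1.59 ± 0.25, adjusted p = 0.00455). It was called in 17 of the 18 settings. It missed the threshold against heterozygote library 2 alone, at -1.68 with an adjusted p of 0.145.

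The early B cell genes were low in both groups and lower in the knockouts. Ebf1, the factor that commits cells to the B lineage, was at 3.57, 6.52, 2.87 and 6.93 CPM in the heterozygotes and 0.948, 0.253, 1.21 and 0.0277 CPM in the knockouts (log2 fold change -3.03 ± 0.65, adjusted p = 0.0305 by edgeR). Cd79a, a chain of the B cell receptor complex, was at 3.36, 6.61, 11 and 12.3 CPM against 0.937, 0.685, 1.56 and 1.18 CPM (-2.93 ± 0.53, adjusted p = 0.0119). Ly6d, which marks lymphoid progenitors turned to the B lineage, was at 5.38, 5.05, 10.3 and 10.2 CPM against 0.469, 0.664, 2.53 and 0.471 CPM (-2.91 ± 0.51, adjusted p = 0.00912). All knockouts were below all controls in these 3 genes, but Cd79a and Ly6d were chosen by a rule that requires this. Of all genes tested, 2.96% were lower without overlap. Ebf1, Cd79a and Ly6d were called in 10, 13 and 13 of the 18 settings. None of the 3 was called against heterozygote library 2 alone, where they were at -3.42, -2.61 and -2.30. Vpreb2, a surrogate light chain gene named here after its values were seen, was at 0.811 to 2.82 CPM against 0.0316 to 0.222 CPM and was called in every setting. Ighm, the mu heavy chain, was at 510, 598, 846 and 837 CPM against 296, 402, 370 and 321 CPM (-1.01 ± 0.20, adjusted p = 0.025).

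Of the B cell markers, Pax5 was at 0.0289 CPM in 1 heterozygote library and 0 in the other 7. Ms4a1 (CD20) never passed 0.0289 CPM. Other markers were expressed, so Pax5 and Ms4a1 alone do not settle how many mature B cells were present. The summed level of the 9 B cell markers was 682 to 1110 CPM in the heterozygotes and 378 to 543 CPM in the knockouts, most of it Ighm, and 2 of 6 tested fell. In these bulk samples, fewer cells of a type and less RNA per cell cannot be told apart.

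Between the Flt3 ITD/+ groups 6 of the 20 lymphoid genes fell and 1 rose, with a median of -0.79, and the interaction of the genotypes called none of them. Il7r fell by 3.33 between the Flt3 ITD/+ groups and by 2.38 in HPC at P0 on the log2 scale. Dntt fell by 3.23 in HPC at P0, but between the Flt3 ITD/+ groups its change was -0.41 (adjusted p = 0.355 by edgeR); the difference between the Flt3 genotypes had an adjusted p of 0.0872 and was not called. In HPC at P0, 14 of 18 tested lymphoid genes fell, where 5.4% of all genes did. In HSC at P0, 0 of 14 passed, and Dntt was at 0.93 with an adjusted p of 0.801.

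**Figure D4:**
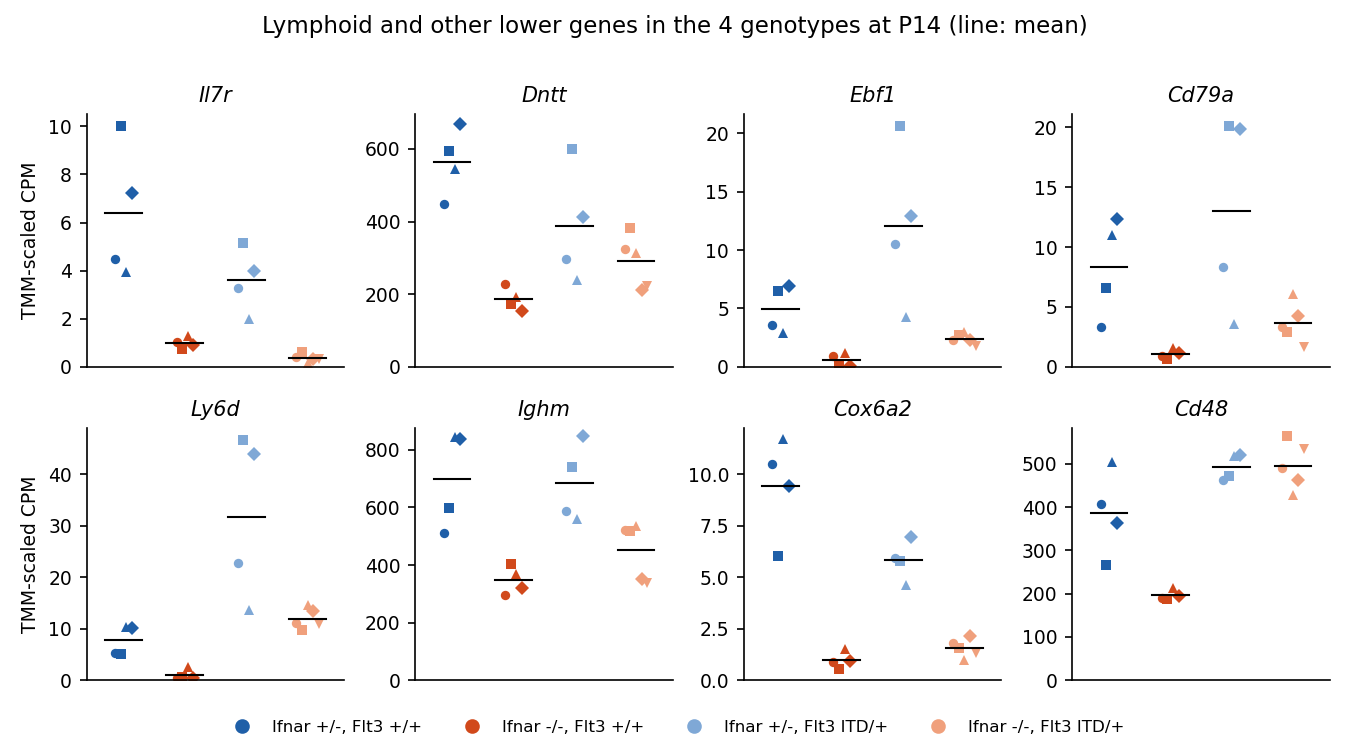
TMM-scaled CPM (vertical axes, from 0) of 8 genes in the 4 genotypes at postnatal day 14, with 1 point for each library and a line at the mean. In Flt3 +/+ (dark colours) every knockout lies below every heterozygote in all 8 genes, which were picked from the calls. Of all genes tested, 2.96% were lower without overlap in Flt3 +/+. Cd48 and Dntt overlap between the Flt3 ITD/+ groups (pale colours).

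Some other genes fell outside the interferon pathway. Cox6a2, the heart and muscle form of a cytochrome c oxidase subunit, was at 10.5, 6.05, 11.7 and 9.46 CPM in the heterozygotes and 0.893, 0.548, 1.52 and 0.915 CPM in the knockouts (log2 fold change -3.29 ± 0.32, adjusted p = 2.62e-05 by edgeR). It was called in all 18 other settings, and it fell by 1.89 between the Flt3 ITD/+ groups and fell by 4.48 in HPC at P0. Plac8, a small cysteine-rich protein of myeloid and lymphoid cells, named here after its values were seen, was at 1310, 385, 692 and 650 CPM against 250, 176, 190 and 146 CPM (-1.99 ± 0.30, adjusted p = 0.00268). Plac8 was lower in all 4 comparisons. Cd48, a SLAM family receptor whose presence separates progenitors from stem cells in common sorts, was at 408, 267, 505 and 364 CPM against 189, 188, 213 and 194 CPM (-0.98 ± 0.16, adjusted p = 0.00462). Heterozygote library 2 was the lowest control for Plac8 and for Cd48, and against it alone the values were -1.02 and -0.45. Between the Flt3 ITD/+ groups Cd48 was at 0.01.

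Myeloid granule genes were highest in a single control. Mpo, the peroxidase of neutrophil granules, was at 6400, 575, 493 and 625 CPM in the heterozygotes and 466, 224, 237 and 113 CPM in the knockouts (log2 fold change -2.96 ± 0.72, adjusted p = 0.0425 by edgeR). Heterozygote library 1 was far above the other 7 libraries. The other 3 controls were also above all knockouts, which the rule that chose Mpo requires. Mpo was called in 9 of 18 other settings, and not without heterozygote library 1. Of 21 tested members of the myeloid list, 2 fell, where 3.31% of all genes did. They were Mpo and the granule protein Nkg7 (-1.61 ± 0.32, adjusted p = 0.024 by edgeR). None was called without heterozygote library 1 or 3 or without knockout library 1, 2 or 4, 8 were lower without heterozygote library 2, and the list's median moved from -0.81 to -0.08 without library 1 and to -0.86 without library 3. S100a8, a neutrophil calcium-binding protein, was at 20.5 CPM in heterozygote library 1 and at 0.0970 to 0.580 CPM in the other 7 libraries. Clec12a, a myeloid lectin, was at 144, 20.7, 41.8 and 37.0 CPM against 17.4, 6.91, 7.94 and 4.31 CPM (-2.74 ± 0.50, adjusted p = 0.0127).

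Part of the genes of energy metabolism fell, with heterozygote library 2 unlike the other controls. Of 23 tested nuclear genes of oxidative phosphorylation, 9 were lower (median -0.75). Atp5g1, a subunit of the ATP synthase ring, was at 580, 207, 563 and 342 CPM in the heterozygotes and 148, 205, 222 and 212 CPM in the knockouts (log2 fold change -1.10 ± 0.24, adjusted p = 0.032 by edgeR). Uqcrq, of respiratory complex III, was at 375, 107, 335 and 187 CPM against 101, 113, 125 and 110 CPM (-1.16 ± 0.26, adjusted p = 0.0356). Heterozygote library 2 was at the knockout level in both. Against it alone 0 of the 23 were called, 6 of the 9 changed sign and the list's median was 0.13. With the length trend as a covariate the median was -0.06 and none was called. Leaving out heterozygote libraries 1 to 4 in turn gave 0, 21, 0 and 2 lower members, and leaving out any knockout library 0. Rpl4 and Rpl18, ribosomal proteins of the large subunit, were the 2 calls among 29, where 3.31% of all genes were lower. The list's median was -0.57 and, against heterozygote library 2 alone, 0.08. Without heterozygote library 2, 27 were called lower, and without any 1 of the other controls 0. In each of the following genes heterozygote library 2 was the lowest control. The glycolytic enzymes Ldha (-0.81) and Pgk1 (-0.64), the sterol enzyme Fdps (-0.96), and the replication and mitosis genes Pcna (-0.73), Gins2 (-0.84) and Cdk1 (-0.74) were called lower as well. For Pcna, Gins2 and Cdk1 the values against heterozygote library 2 alone were 0.06, 0.00 and 0.16. Atp5o, of the ATP synthase stalk, and Cbr1, a carbonyl reductase, were also the 2 calls among 35 tested genes near Ifnar1 (-0.86 and -0.84). Over all genes 3.31% were lower, and neither gene was called between the Flt3 ITD/+ groups. Leaving out heterozygote library 1, 3 or 4 or any knockout library gave no call among the 35. Leaving out heterozygote library 2 gave 8 higher and 5 lower.

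The higher genes did not reach the same standing. All 188 kept a positive sign against heterozygote library 2 alone, with a median log2 fold change of 0.36 there against 0.96 with all controls, but none was called there. With the length trend as a covariate none was called either, and with length offsets 65 were. The 15 that changed most by the naming rule lay between 1.34 and 2.20. Mecom, a transcription factor of stem cells, was at 59.3 CPM in heterozygote library 2, 28.7 CPM in library 4 and close to 16.3 CPM in libraries 1 and 3, and at 70.0, 87.0, 65.6 and 96.7 CPM in the knockouts (1.4 ± 0.31, adjusted p = 0.0316 by edgeR). Hlf, another such factor, was at 160, 321, 191 and 204 CPM against 373, 410, 330 and 468 CPM (0.85 ± 0.19, adjusted p = 0.035). The knockouts were above every control in both genes, and heterozygote library 2 was the closest. Mecom was chosen by a rule that requires this separation, and 608 of 17464 genes tested were higher without overlap. With Fli1 (0.58), Mecom and Hlf were the 3 rises among 30 tested stem and progenitor genes, of which Cd48 and Ly6a (-1.08) fell. The rises became 0 without heterozygote library 1, 3 or 4 or without any knockout library, and 13 without heterozygote library 2. Between the Flt3 ITD/+ groups Hlf rose by 1.03, and Mecom was at 0.73 with an adjusted p of 0.18.

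Atp7b, a copper transporter, gave the largest named rise at 0.531, 2.07, 0.574 and 1.06 CPM against 6.36, 4.66, 3.03 and 5.56 CPM (log2 fold change 2.20 ± 0.53, adjusted p = 0.0423 by edgeR). Between the Flt3 ITD/+ groups its value was 0.01. Of the 15, 5 also rose there: Clip3, a protein that binds microtubules, Slc27a6, a fatty acid transporter, the matrix protein Postn, and the membrane proteins Lrrn3 and Fam171b. Postn was at 8.82, 29.4, 15.8 and 22.5 CPM against 39.8, 45.8, 46.8 and 71.7 CPM (1.41 ± 0.31, adjusted p = 0.0316) and rose by 1.59 between the Flt3 ITD/+ groups. Clip3 was at 1.42, 3.43, 3.09 and 3.41 CPM against 6.06, 8.42, 5.67 and 10.6 CPM (1.44 ± 0.31, adjusted p = 0.0301) and rose by 1.39 there and by 1.69 in HPC at P0. Among single genes of cell death and imprinting lists, the p53 target Mdm2 (0.69) and the imprinted Ndn (0.97) were higher and the p53 target Cdkn1a (-1.09) lower.

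The cell type labels were checked against markers. The progenitor genes Kit and Flt3 were uneven in the controls: Flt3 read 111, 1050, 132 and 169 CPM in the heterozygotes and 506, 982, 913 and 908 CPM in the knockouts (log2 fold change 1.18 ± 0.57, adjusted p = 0.173 by edgeR). Kit read 99.6, 1230, 97.1 and 338 CPM against 840, 1150, 1030 and 1060 CPM. Both were low in heterozygote libraries 1, 3 and 4. Cd34 was at 752 to 1540 CPM and Myb at 71.7 to 148 CPM in all 8 libraries. Lists of erythroid, megakaryocyte, mast cell and eosinophil, macrophage, T and NK, endothelial and stromal genes gave no call among 82 tested members. At an unadjusted p under 0.05, 6 of these were higher and 5 lower, and DESeq2 called 3 higher and 1 lower. Over all genes, 5367 of 17464 had such a p in either direction, and DESeq2 called 1205 higher and 1899 lower. Eosinophil granule genes split the knockouts: Prg2 was at 1650, 393, 1.42 and 0.624 CPM in knockout libraries 1 to 4 and at 504, 31.0, 138 and 87.5 CPM in the heterozygotes. The part of such cells in the other results was not tested. Lists of STAT5, MAPK and NF-kB feedback genes gave no call among 54 tested members. At an unadjusted p under 0.05, 10 were higher and 1 lower, and 3 were higher by DESeq2, beside the same totals over all genes.

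Across settings, 14 genes were called lower each time: Ifi44, Oas1g, Mx1, Oas1a, Oasl1, Rtp4, Ifi206, Vpreb2, Ifi27, Usp18, H2-Q7, Ifi27l2a, Cox6a2 and Il7r. Of these, 9 are in an interferon list and 1 in an MHC list. No higher gene was called each time. The number of lower genes ranged from 19 against heterozygote library 2 alone to 2704 without that library. The higher genes ranged from 0 to 3519 over the same settings.

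**Figure D5:**
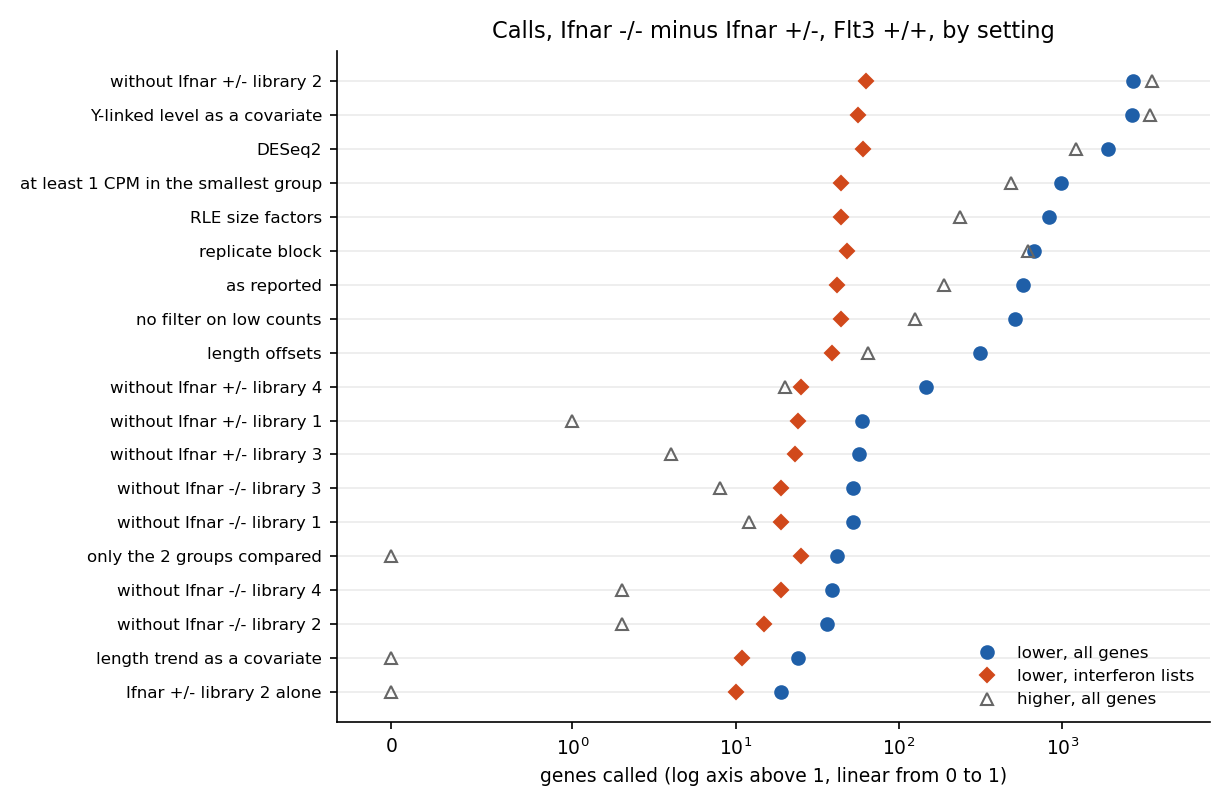
Genes called lower (blue circles), lower within the interferon lists (orange diamonds) and higher (grey triangles) in Ifnar -/- against Ifnar +/-, Flt3 +/+ (horizontal axis, log above 1) under each setting of the analysis (vertical axis). Interferon members called lower stay between 10 and 63, while all lower calls run from 19 to 2704 and higher calls from 0 to 3519.

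In the other 3 comparisons, which share no library with this one, more of the interferon genes fell. Of the members tested, 101 of 158 were lower between the Flt3 ITD/+ groups (median -1.29), 106 of 146 in HPC at P0 (-1.30) and 84 of 156 in HSC at P0 (-1.14), against 42 of 158 here. The MHC class I list gave 16 of 25, 18 of 20 and 14 of 25 lower members there. Of the 578 lower genes, 83 were also lower in Ifnar -/- between the Flt3 ITD/+ groups, which is 14.4% of these and 24.8% of the 335 there; 1.92% of all genes were lower there. Of the 83, 40 are in an interferon list. In HPC at P0, 202 of the 537 tested in both were lower as well, 37.6% of these and 28.8% of the 701 there, and in HSC at P0 52 of 561, 9.27% of these and 35.4% of 147. The share lower over all genes was 5.4% and 0.931% in those comparisons. Of the shared lower genes, 40 in HPC at P0 and 36 in HSC at P0 are in an interferon list. The fold changes in HPC at P0 also correlated with exon length (0.26, against 0.35 here). The part of gene length in the shared calls was not tested. Of the higher genes, 24 were shared with the Flt3 ITD/+ groups, 26 with HPC at P0 and 0 with HSC at P0, where 2.11%, 4.97% and 0.21% of all genes were higher. In either direction 4.03%, 10.4% and 1.14% were called in these comparisons.

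Lower in all 4 comparisons were 47 genes, of which 35 are in an interferon list and 6 in an MHC list. Their median log2 fold change was -2.36 here, -3.52 between the Flt3 ITD/+ groups, -4.11 in HPC at P0 and -3.64 in HSC at P0. In 42 of the 47 the change was less negative than between the Flt3 ITD/+ groups. The P0 controls are wild type, whereas the P14 controls are heterozygous, so age and control genotype cannot be told apart. Beside those in the lists, the 47 held Plac8, Hsh2d, Ms4a6c, Ifi206, Gm12250 and Gm13822.

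Whether loss of Ifnar acted differently with and without the Flt3 duplication was tested by the interaction of the 2 genotypes. Only 2 of 17464 genes passed (0.0115%), both lower: Nlrc5, with a log2 difference of -3.22 ± 0.50 (adjusted p = 0.0413 by edgeR), and the survival gene Bcl2, with -1.67 ± 0.24 (adjusted p = 0.0331). None was higher. Bcl2 was at 15.1, 13.5 and 13 CPM in Flt3 +/+ heterozygote libraries 2 to 4, with library 1 inside the knockout range, and at 18.7, 15.6, 15.3 and 16.6 CPM in the knockouts, a log2 fold change of 0.19, against -1.49 between the Flt3 ITD/+ groups. At an unadjusted p under 0.05 there were 5190 genes, and DESeq2 called 1405 higher and 1047 lower. Against heterozygote library 2 alone, edgeR called 0 genes.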

How the data were processed

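The deposited table holds raw read counts per gene, per the labels' columns, for 40481 genes. The submitters' processing notes name STAR, Subread and featureCounts 1.4.5, and per the labels' protocols RNA came from Qiagen RNeasy columns and cDNA from a Clontech SMART kit. The genome build of the alignment is not given in the sources used here. GENCODE M21 served for symbols, exon length (merged exons) and gene order, and RefSeq promoters of GRCm38.p6 for sequences. Counts were filtered with filterByExpr, scaled by TMM and tested with edgeR 4.0.16 (quasi-likelihood F-test) in R 4.3.3. A prior count of 2 entered the log2 CPM of the length trend, the length offsets and the naming rule. Fold changes took edgeR's default prior count. The 17 HPC libraries of P14 entered 1 fit of 4 groups, and the P0 HPC and P0 HSC libraries 1 fit each. P-values were adjusted by Benjamini-Hochberg over all genes of a fit, and genes under 0.05 were called. Printed CPM are TMM-scaled, and SE is the absolute log2 fold change over the square root of F. The test was also run on simulated counts. These held no length trend and no uneven control library, so that run does not bear on either feature of the data.

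Alternatives were other size factors, filters, DESeq2 1.42.0, leaving out each library, a replicate block, the 2 groups alone, Y-linked level or length trend as covariate, loess length offsets (span 0.5) and heterozygote library 2 as the only control. The last 2 were chosen after seeing the data. Named genes were Ifnar1, Ifnar2, Flt3, up to 15 called genes a direction of largest change (mean log2 CPM of at least 1, no overlap of groups, no predicted genes), up to 5 called members of smallest p from each list, and called neighbours among 30 coding genes on either side of Ifnar1. Others (Nlrc5, Tap1, Oas3, Plac8, Vpreb2, Bcl2, Prg2 and Elane among them) were added after their values were seen. The members and lists were chosen with earlier results of these data known. No pair of libraries was identical.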

Additional observations from a re-analysis of the deposited data

Results flagged for a closer look

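In 11 of 156 groups of 4 libraries checked, 1 library lay far from the other 3 by Dixon's criterion, where chance gives about 5%. That share is a rough guide only, because the genes checked were picked from the calls and are not independent. The 11 are listed as values and are not held to exceed chance. In the Ifnar +/- libraries these were Mpo at 6400 CPM, S100a8 at 20.5 CPM and Cdkn1a at 8.81 CPM in library 1, all the highest of their group, and Clip3 at 1.42 CPM in library 1, the lowest. Library 2 was far above the other controls for Flt3 at 1050 CPM and Ifnar2 at 41.4 CPM, and library 4 for Ifit3 at 18 CPM. In the Ifnar -/- libraries, library 1 was far below the others for Flt3 at 506 CPM and far above for Scai at 23.5 CPM and Mx1 at 0.0781 CPM, and library 3 was far above for Ly6d at 2.53 CPM.

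The effect of Ifnar loss differed between Flt3 ITD/+ and Flt3 +/+ in edgeR's interaction test for Bcl2, by -1.67 on the log2 scale, and for Nlrc5, by -3.22. Both stayed called with other size factors, other filters and DESeq2. Neither was called with the length trend as a covariate, with a replicate block, or without Flt3 +/+ heterozygote library 3 or 4.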

How the results depend on the processing

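With 766 calls in the Flt3 +/+ comparison, the count was 1474 with at least 1 CPM in the smallest group, 3104 with DESeq2, 24 with the length trend as a covariate, 378 with length offsets, 42 with only the 2 groups compared, 6122 with Y-linked level as a covariate and 19 with heterozygote library 2 alone. Leaving out 1 library gave 38 to 6223 calls, the highest without heterozygote library 2 and the lowest without knockout library 2; every one of these 8 counts differed from 766 by over 1.5 times. For the 704 calls between the Flt3 ITD/+ groups the count was 1378 with DESeq2 and 1368 with only those groups, and 319 to 682 with 1 library left out. The 2 interaction calls became 12 with no filter, 4 with at least 1 CPM, 2452 with DESeq2, 0 with the length covariate, 1 with length offsets, 0 with heterozygote library 2 alone and 0 to 5592 with 1 library left out. For P0 HPC (1347 calls) DESeq2 gave 2041 and leaving out 1 library 650 to 2310; for P0 HSC (185) these were 336 and 141 to 186. The cause of these shifts was not tested.

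With a replicate block the counts were 1293, 452, 0, 947 and 154 in the order above. Same-numbered libraries did not deviate together (correlations 0.23, 0.04, -0.04 and -0.09 for the Flt3 +/+ pairs), so the numbers were not taken as pairs.

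Of 1384 values of 77 single-gene results, 861 kept direction and call, 506 lost the call, 9 gained one and 8 changed sign, all 8 with heterozygote library 2 alone: Ifnar2 -0.33, Flt3 -0.35, Cdk1 0.16, Pcna 0.06, Gins2 0.00, Uqcrq 0.07, Ndufs6 0.12 and Atp5o 0.05. A lone library is assumed there to vary like the other groups.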

Other observations

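Eosinophil peroxidase (Epx) followed the split of Prg2 in the knockouts, at 450, 154, 0.0131 and 0.0139 CPM in libraries 1 to 4, and was at 53.5, 0.434, 7.26 and 24.7 CPM in the heterozygotes. Ctsg (cathepsin G) was at 553, 4.69, 6.81 and 12 CPM in the heterozygotes and 19.2, 1.68, 1.76 and 0.333 CPM in the knockouts. Ddx3y, a Y-linked gene, was at 0, 81.4, 29.8 and 0.0114 CPM in heterozygote libraries 1 to 4 and at 0.0558, 80.2, 78.7 and 93.3 CPM in the knockouts. Ifi213, a PYHIN gene of the interferon lists, was at 2.02, 4.3, 4.87 and 6.74 CPM in the heterozygotes and at 0.714, 0.0316, 0.0656 and 0.194 CPM in the knockouts. These genes were chosen after their values were seen.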
